A study of Rattus norvegicus with 6 samples.

Results

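The rat miRNAs of the miR-193 and miR-365 clusters were taken from the table of miRNA read counts by name, as every rat name for miR-193a, miR-193b, or miR-365 with both arms. This gave 6 of the 910 names in the table. The set was chosen by name, but with earlier results of these data known, in particular the low level of miR-193b-3p in the Na2SeO3 group and the question whether both clusters are low together there. For that reason the differences between the groups are given for these 6 miRNAs as a description, with no p-value printed. Whether those tested passed an adjusted p-value threshold is stated, but no support is taken from this or from the differences.

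Lens capsules of Sprague Dawley rat pups were studied. The 3 pups of the control group received saline and the 3 pups of the Na2SeO3 group received sodium selenite at 20 μmol/kg. In both groups it was given under the skin of the neck on days 3, 5, and 7 of the experiment, which are not ages of the pups. The labels name the control libraries WT and the Na2SeO3 libraries Model, and the lenses of both groups were taken after ketamine anesthesia. RNA came from the capsular membrane of the lens, with 1 library per rat. The authors trimmed the reads, placed them on the rat reference, and deposited read counts per miRNA name without normalization. The counts summed to between 1806596 and 2829903 per control library and to between 663096 and 968151 per Na2SeO3 library, so that a count of 3, taken as the smallest that a library can show, stood for 1.06 to 1.66 CPM (counts scaled to the library total) among controls and for 3.10 to 4.52 CPM in the Na2SeO3 group. The lens list of miR-184, miR-204, miR-211, miR-182, miR-183, miR-96, and miR-31a took 24.4% to 26.3% of the counts in the control libraries and 24.6% to 27.1% in the Na2SeO3 libraries. All 12 names of that list had counts. Within it miR-184, known from the lens and cornea, stood at 81459 ± 6586 CPM in the control group and at 37254 ± 3194 CPM in the Na2SeO3 group (after TMM scaling, SD, n = 3 each).

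A miRNA gene is transcribed into a hairpin, from which Dicer cuts a 5p and a 3p arm, and usually one arm is kept in the silencing complex. The kept arm finds its target mRNAs mainly with its seed, the bases 2 to 8 from the 5′ end. In mammals a miR-365 gene lies near the miR-193b gene and another near the miR-193a gene, and the members of such a cluster can be made from a shared transcript. The miR-193b and miR-365 cluster is known from brown fat, where it favours the fat cell fate over the muscle cell fate, and miR-193 members are known to restrain the growth of several tumours. Both miRNAs have been found in the aqueous humour, the fluid in front of the lens.

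The mature sequences show which members could act on the same targets. They are taken from RefSeq (rat assembly GRCr8, all 6 found by name) and printed 5′ to 3′ with the seed in capitals.
rno-miR-193b-3p: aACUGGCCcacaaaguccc
rno-miR-193a-3p: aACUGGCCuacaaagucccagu
rno-miR-365-3p: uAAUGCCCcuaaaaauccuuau
rno-miR-193b-5p: gGGGUUUUgagggcgaga
rno-miR-193a-5p: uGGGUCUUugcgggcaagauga
rno-miR-365-5p: gAGGGACUuucaggggc

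The 3p arms of miR-193b and miR-193a shared the seed ACUGGCC, and no other of the 693 mature rat sequences searched had it. The seed of miR-365-3p, AAUGCCC, was found in no other mature sequence, so the miR-193 and miR-365 members did not share a seed. Over the 19 bases that RefSeq lists for miR-193b-3p, the 3p arms of miR-193b and miR-193a were the same at 18 and differed by C9U, counted from 1 at the 5′ end of miR-193b-3p. How the authors' counting assigned reads to such near-identical names is not given in the sources used here.

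The hairpins of the members with the most reads are shown with both arms in capitals, so that the counted 3p arm can be seen beside its 5p arm. Mir193b lies at chr10:1824944-1825026 on the plus strand of GRCr8 within the long non-coding RNA gene LOC102547286, with Mrtfb and Parn as the nearest protein-coding genes outside it. Mir365b lies at chr10:65184217-65184302 on the plus strand, 13.8 kb from Mir193, the gene of miR-193a at chr10:65170317-65170402, and both lie within the span of the protein-coding gene Faul2 in that annotation. Mir193b and Mir193 are 63.3 Mb apart. Whether the hairpins fall in exons or introns of these genes is not given by the annotation table used. The build behind the count table is not given in the sources used here, so these positions belong to the printed sequences and not to the reads.
Mir193b: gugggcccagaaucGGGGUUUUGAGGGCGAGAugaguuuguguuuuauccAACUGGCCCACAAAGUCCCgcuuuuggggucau
Mir365b: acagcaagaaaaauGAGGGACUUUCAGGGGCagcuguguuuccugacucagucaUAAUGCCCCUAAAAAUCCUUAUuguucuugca

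Of the 6 miRNAs, 5 had a count in at least 1 library, and 2, rno-miR-193b-3p and rno-miR-365-3p, passed the filter on low counts with which 341 names were tested. The filter asks for about 7.21 CPM in 3 libraries, and both stood above that in all 6 libraries, so neither was let in by the control group alone. These 3p arms held 798 of the 815 reads counted on all 6 miRNAs, a share of 97.9% (exact binomial 95% interval 96.7% to 98.8%, counting error only).

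rno-miR-193b-3p was counted 144, 105, and 71 times in control libraries 1 to 3 and 9, 9, and 14 times in Na2SeO3 libraries 1 to 3. After TMM scaling, which assumes that most miRNAs are equal between libraries, this was 49.7, 54.3, and 45.9 CPM in the control libraries. In the Na2SeO3 libraries it was 13.1, 8.17, and 15.4 CPM. The means ± SD were 50.0 ± 4.19 and 12.2 ± 3.69 CPM. The groups did not overlap, and the lowest control library was 2.98 times the highest Na2SeO3 library. Of the exact Poisson 95% intervals, the highest upper limit in the Na2SeO3 group was 25.8 CPM and the lowest lower limit in the control group was 35.9 CPM. These intervals cover counting error and not the spread between rats. Nothing is read from this gap, because miR-193b-3p was chosen with this contrast known. The log2 fold change from edgeR was -2.05 (standard error 0.27), which was the lowest value among all 341 miRNAs tested. The median of all miRNAs tested was 0.08.

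rno-miR-365-3p was counted 138, 133, and 90 times in control libraries 1 to 3 and 11, 40, and 34 times in Na2SeO3 libraries 1 to 3. After scaling this was 47.7, 68.8, and 58.2 CPM in the control libraries. In the Na2SeO3 libraries it was 16.0, 36.3, and 37.4 CPM. The groups again did not overlap, but the lowest control library was only 1.27 times the highest Na2SeO3 library, and Na2SeO3 library 1 lay well under the other two of its group. The counting intervals of the groups overlapped, with an upper limit of 52.3 CPM in Na2SeO3 library 3 and a lower limit of 40.0 CPM in control library 1. The log2 fold change was -0.92 (standard error 0.28), which placed it 21 of 341 from the lowest. Without Na2SeO3 library 1 it was -0.68. In a bulk sample such as this, fewer cells that make a miRNA and less of it per cell cannot be told apart.

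**Figure D1:**
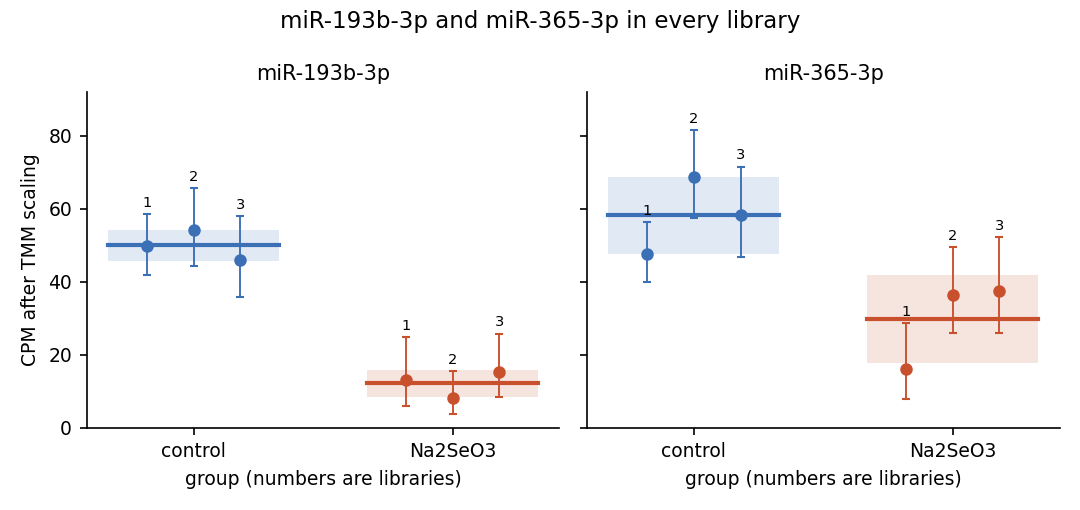
The panels plot the CPM after TMM scaling of miR-193b-3p and miR-365-3p in each library, with bars for the exact Poisson 95% interval of the count, and lines and bands for the group mean ± SD (n = 3). The groups lie wide apart for miR-193b-3p, while for miR-365-3p Na2SeO3 libraries 2 and 3, at 36.3 and 37.4 CPM, come close to control library 1 at 47.7 CPM.

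A DEmiRNA, by the thresholds that the study's methods set, has an adjusted p-value under 0.05 (edgeR, quasi-likelihood) and a log2 fold change past 1 in either direction. This rule called 1 of these 2 miRNAs lower, miR-193b-3p, as it did 4.99% of all miRNAs tested. The adjusted p-value alone called both lower, where it called 13.8% of all miRNAs tested lower. In both miRNAs every Na2SeO3 library lay under every control library, which held for 21.1% of all miRNAs tested. These miRNAs were chosen with this contrast known, so nothing is read from these counts. The adjusted p-value threshold was not passed by miR-365-3p without any 1 of the 3 control libraries, where its log2 fold change was -1.06, -0.79, and -0.93 without control library 1, 2, and 3.

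**Figure D2:**
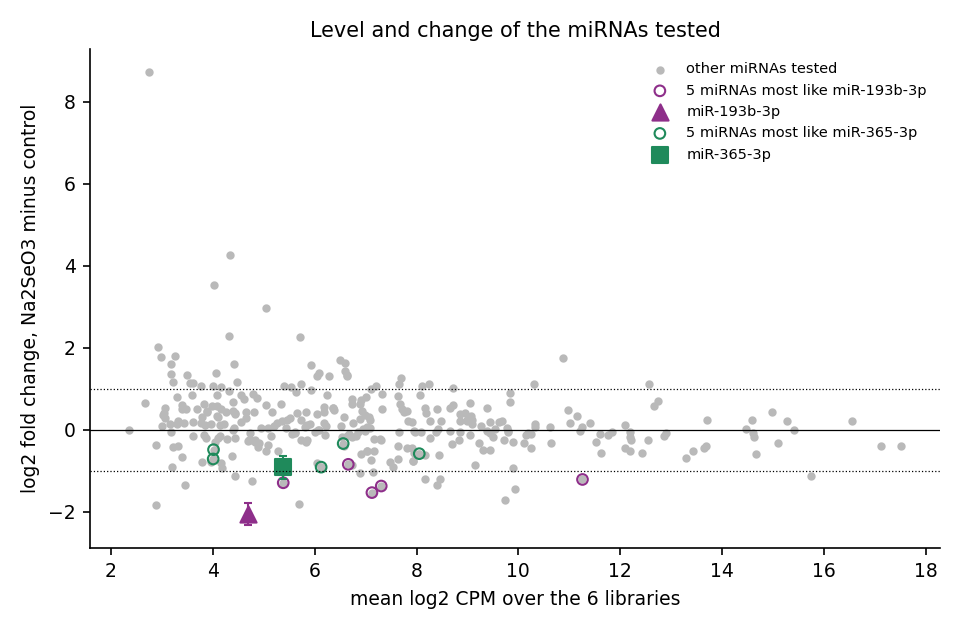
Each point is 1 of the 341 miRNAs tested, with its mean log2 CPM over the 6 libraries on the x axis and its log2 fold change (Na2SeO3 minus control) on the y axis. Dotted lines mark a log2 fold change of 1 in either direction, and bars are standard errors. miR-193b-3p is the lowest point at -2.05, and miR-365-3p sits just inside the dotted line at -0.92.

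The remaining arms were close to the limit of what the libraries could show. rno-miR-193b-5p was counted 3, 1, and 1 times in control libraries 1 to 3, once in Na2SeO3 library 2, and not in the other 2 Na2SeO3 libraries. Its share of the reads of both miR-193b arms was 1.54% in the control group (5 of 325 reads, exact 95% interval 0.501% to 3.55%) and 3.03% in the Na2SeO3 group (1 of 33 reads, 0.0767% to 15.8%). The intervals of the groups overlap. They rest on reads pooled over the libraries of each group, and a difference in arm use was not tested. The 3p arm was by far the more frequent in both groups.

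rno-miR-365-5p was counted in no library, 0 of 9221212 reads in all, where a count of 3 would stand for 0.325 CPM. The miR-365 reads that were counted on a rat name were thus all from the 3p arm.

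rno-miR-193a-3p, the seed mate of miR-193b-3p, was counted 3 times in control library 1 and in no other library. It took 0.845% of the reads of both 3p arms with this seed (3 of 355 reads, exact 95% interval 0.175% to 2.45%), so 352 of the 355 reads were counted on miR-193b-3p. rno-miR-193a-5p was counted 1, 0, and 3 times in control libraries 1 to 3 and 2, 2, and 0 times in Na2SeO3 libraries 1 to 3. No miRNA of the miR-193a hairpin had more than 3 counts in any library, and no fold change is given for counts this low. Mir365b, which lies near Mir193, is the only gene that the table used here gives for miR-365-3p, and a miR-365 gene near Mir193b was not analysed here. From which gene the miR-365-3p reads came was not tested.

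Whether miR-193b-3p and miR-365-3p were low to the same degree can be read within each library, where the scaling plays no part. In the control group miR-193b-3p made up 51.1%, 44.1%, and 44.1% of the reads of both in libraries 1 to 3. In the Na2SeO3 group it made up 45.0%, 18.4%, and 29.2%. Na2SeO3 libraries 2 and 3 lay under all control libraries, but Na2SeO3 library 1 lay among them, with only 20 reads behind its share. The exact binomial 95% intervals in Na2SeO3 libraries 1 to 3 were 23.1% to 68.5%, 8.76% to 32.0%, and 17.0% to 44.1%. Differences between these libraries were not tested. The log2 ratio of miR-193b-3p to miR-365-3p in the control group was -0.21 ± 0.23 (SD, n = 3). That of the Na2SeO3 group was -1.24 ± 0.93 (SD, n = 3). The difference of -1.03 was about as large as the spread within the Na2SeO3 group, and the groups overlapped. Without Na2SeO3 library 1 the difference was -1.51, and without Na2SeO3 library 2 it was -0.58.

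**Figure D3:**
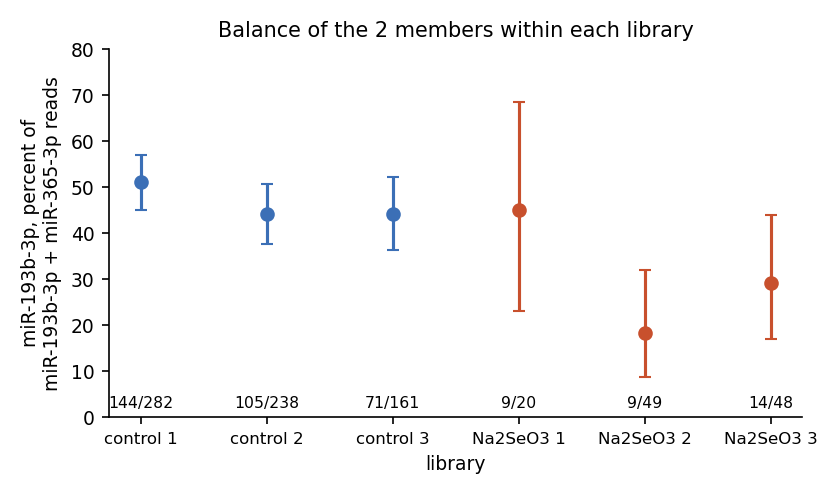
The points show the reads of miR-193b-3p as a percentage of the reads of miR-193b-3p and miR-365-3p in each library, with exact binomial 95% intervals and the counts written below. The control libraries sit at 44.1% to 51.1%, and the Na2SeO3 libraries spread from 18.4% to 45.0%.

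The lowest CPM of miR-365-3p was in Na2SeO3 library 1, the library with the fewest counts. For miR-193b-3p the lowest library was not resolved, with 9 counts each in Na2SeO3 libraries 1 and 2 and Poisson intervals of 5.99 to 24.9 CPM and 3.74 to 15.5 CPM. Of all miRNAs tested, 66 had their lowest CPM in Na2SeO3 library 1, against 50 in library 2 and 54 in library 3. The part of depth in the low value of miR-365-3p was not tested.

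The 5 miRNAs whose log2 CPM followed that of miR-193b-3p most closely over the 6 libraries were miR-203a-3p, miR-29b-3p, miR-132-5p, miR-132-3p, and miR-429, with Pearson correlations from 0.97 to 0.98. These values describe likeness over 6 points that share their libraries, and they include the difference between the groups. The selection thus favours miRNAs that are low in the Na2SeO3 group, and the values of the selected miRNAs are given as a description, with no p-value. miR-203a-3p, a miRNA of stratified epithelium, stood at 3733 ± 215 CPM in the control group and at 1610 ± 59.7 CPM in the Na2SeO3 group (SD, n = 3 each). Its log2 fold change was -1.21. miR-132, which is induced by the transcription factor CREB, had log2 fold changes of -1.53 for miR-132-5p and -1.37 for miR-132-3p. miR-429, of the epithelial miR-200 family, had a log2 fold change of -0.84. miR-29b-3p, of the miR-29 family that targets collagen mRNAs, had one of -1.29.

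A different set was most like miR-365-3p: miR-582-3p, miR-195-5p, miR-221-5p, let-7f-2-3p, and miR-1843a-5p, with Pearson correlations from 0.91 to 0.99. No miRNA was in both sets of 5. miR-582-3p, the most alike, stood at 80.8, 108, and 102 CPM in control libraries 1 to 3 and at 32.0, 57.2, and 62.7 CPM in Na2SeO3 libraries 1 to 3, with its lowest value in Na2SeO3 library 1 like miR-365-3p. Its log2 fold change was -0.91. miR-195-5p, of the miR-15 family that restrains the cell cycle, was at -0.34 on the log2 scale. miR-221-5p was at -0.49, let-7f-2-3p at -0.71, and miR-1843a-5p at -0.58. Of the other 340 miRNAs, 21 had a correlation over 0.9 with miR-193b-3p and 7 had one with miR-365-3p. Between miR-193b-3p and miR-365-3p themselves it was 0.73.

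**Figure D4:**
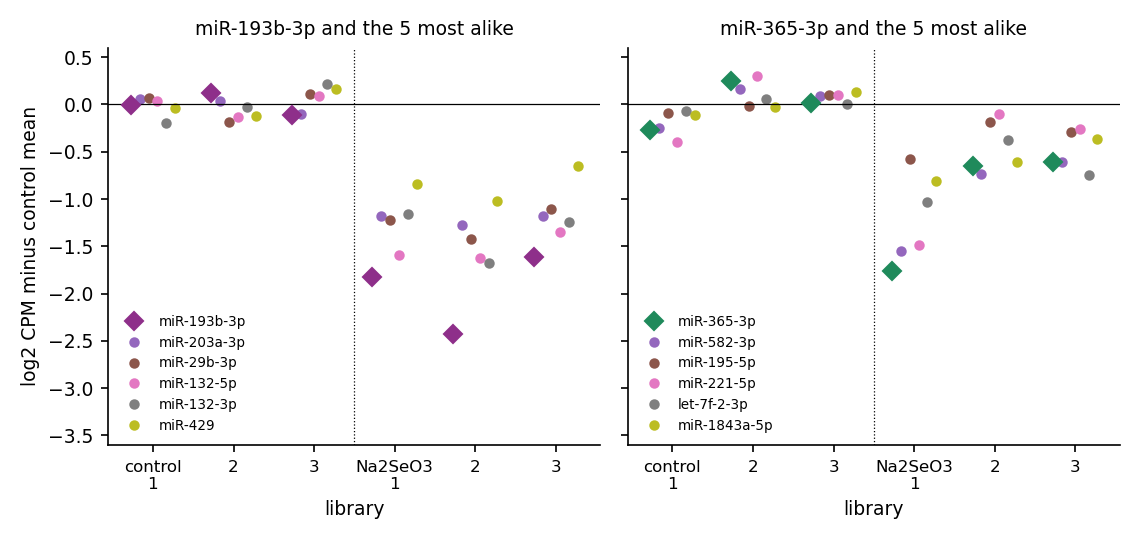
The panels plot log2 CPM minus the mean of the control libraries for miR-193b-3p (left) and miR-365-3p (right), drawn as diamonds, and for the 5 miRNAs most like each, drawn as circles, in each of the 6 libraries. All miRNAs shown on the left, and those on the right other than miR-221-5p, lie lower in each Na2SeO3 library than in each control library, and those on the right, selected for their likeness to miR-365-3p, are lowest in Na2SeO3 library 1.

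Other miRNAs known from brown fat were counted as a list. It shares miR-133 with the muscle list and miR-203a with the epithelial list, both given further below, and miR-182 with the lens list. Of 43 names of a list with miR-133, miR-155, miR-196a, miR-27, miR-106b, miR-93, miR-455, miR-378, the miR-30 family, miR-34a, miR-26, miR-182, miR-203a, and miR-32, 32 were tested. Of these 32, 1 was called higher and 1 lower, where 11.4% and 4.99% of all miRNAs tested were, and their median log2 fold change was -0.05 beside 0.08 for all miRNAs tested. The number called was 1 to 4 when single libraries were left out (4 without Na2SeO3 library 1 and 1 without control library 2 or Na2SeO3 library 2), and with RLE or upper-quartile scaling 0 were called higher. By the adjusted p-value alone 5 of the 32 rose and 6 fell, where 20.8% and 13.8% of all miRNAs tested did, but with library size only as the scale 6 rose and 2 fell, and with the raw reads 0 rose and 26 fell. miR-378a-5p, which is made from an intron of the mitochondrial regulator gene Ppargc1b, rose by 1.04 on the log2 scale (edgeR, adjusted p = 0.0048) and was not called with RLE or upper-quartile scaling, and miR-203a-3p was the one called lower. miR-155-5p, which restrains brown fat cell formation, was at -0.02, and both arms of miR-455 lay between -0.05 and -0.02. These list members were named after their values were seen. Others of the list differed by the adjusted p-value, among them miR-27a-5p at -0.88, miR-30c-5p at -0.56, and miR-133b-3p at 0.98. miR-196a-5p was counted once each in control libraries 1 and 2 and in no other library.

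The study's discussion names miR-193b and miR-365 among the miRNAs of the aqueous humour, together with miR-202, miR-135a, and miR-376a. Both arms of miR-202 were at 0 in all 6 libraries. miR-135a-5p, counted 213 to 904 times per library, differed by 0.03 on the log2 scale (edgeR, adjusted p = 0.923), and miR-135a-3p, counted 9 to 55 times, by -0.78 (edgeR, adjusted p = 0.0719). miR-376a-5p, counted 3 to 13 times per library, and miR-376a-3p, counted 0 to 2 times, were not tested. Of the 2 names tested out of 6, 0 were called, and with the raw reads as the scale both were called lower, as were 176 of all 341 miRNAs tested.

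miRNAs of other tissues at or near the capsule were counted by list, to be read against all miRNAs tested, of which 11.4% were called higher and 4.99% lower, and 20.8% rose and 13.8% fell by the adjusted p-value alone. Of 8 epithelial miRNAs tested (miR-200 family, miR-203a, and miR-205, out of 14 names with only miR-203b-5p at 0), 7 fell by the adjusted p-value under each of the scalings except the raw reads, where 8 did. The 4 called lower were miR-200a-3p at -1.19, miR-200a-5p at -1.06, miR-200b-3p at -1.45, and miR-203a-3p. The number called lower was 2 with library size only, 5 with upper-quartile scaling, 8 with the raw reads as the scale, and 3 without control library 3. The list took 0.656% to 0.770% of counts in the control libraries and 0.342% to 0.394% in the Na2SeO3 libraries. Of 6 muscle miRNAs tested out of 15 names, 4 rose by the adjusted p-value, but with the raw reads as the scale 0 rose and 1 fell. miR-206-3p, a miRNA of skeletal muscle, was called higher at 1.75, while miR-499-5p was at -0.49 (edgeR, adjusted p = 0.068). The number called in the muscle list was 2 without control library 1 or Na2SeO3 library 1 and with library size only as the scale. The muscle list took 0.699% to 0.821% of counts in the control libraries and 1.50% to 1.54% in the Na2SeO3 libraries, with miR-133c and the 5p arms of miR-1, miR-133b, miR-208a, and miR-208b at 0. The neural and glial list had 12 of 20 names tested and none at 0. It held 1 miRNA called higher, miR-219a-2-3p of oligodendrocytes at 4.26, and 0 called lower. In the same list miR-338-3p was at -0.93 and miR-338-5p at 0.25, neither past the adjusted p-value threshold. By the adjusted p-value alone 2 of the 12 in this list rose and 3 fell, and the median of the list was 0.01. Among the 3 that fell were miR-129-1-3p and miR-129-2-3p with the same counts. The number called was 2 without Na2SeO3 library 2. Called lower were 1 with upper-quartile scaling and 7 with the raw reads as the scale. The list took 3.65% to 3.70% of counts in the control libraries and 4.71% to 5.35% in the Na2SeO3 libraries. The blood list, with 7 of 11 names tested and miR-451-3p at 0, held 1 called higher, miR-486 of red blood cells at 1.12 (0 called without Na2SeO3 library 1). In the same list miR-451-5p was at 0.06 and miR-144-5p at 0.41, neither past the adjusted p-value threshold. By the adjusted p-value alone 1 rose and 0 fell, the median was 0.06, and with the raw reads as the scale 0 were called higher and 4 lower. The list took 0.0350% to 0.0451% of counts in the control libraries and 0.0591% to 0.0655% in the Na2SeO3 libraries. In the lens list, with 11 of 12 names tested and none at 0, miR-184 and miR-31a-3p were called lower, each at -1.13. By the adjusted p-value alone 0 rose and 3 fell, and the number called was 0 with library size only, 8 with the raw reads as the scale, and 1 without any 1 of the control libraries or without Na2SeO3 library 1. The part of the tissue makeup of the samples in the levels of miR-193b-3p and miR-365-3p was not tested.

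The size of the differences depended on the scale while their direction did not. With library size only as the scale the log2 fold changes were -1.87 for miR-193b-3p and -0.71 for miR-365-3p. With the raw reads of each library as the scale, in place of the counts on miRNA names, they were -3.22 and -2.03, but the median of all miRNAs tested was 0.27 on the former scale and -1.07 on the latter.

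**Figure D5:**
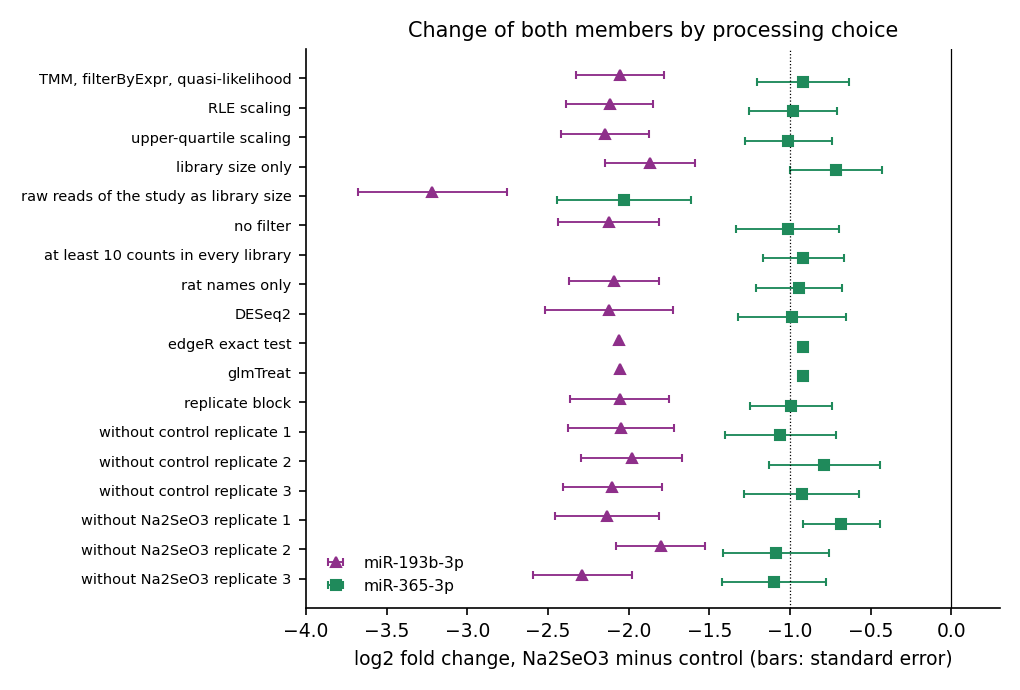
The log2 fold changes (Na2SeO3 minus control) of miR-193b-3p (triangles) and miR-365-3p (squares) are plotted for each scaling, filter, test, and set of libraries, with standard errors where the method gives one, and the dotted line marks -1. All values lie under 0, between -3.22 and -1.80 for miR-193b-3p and between -2.03 and -0.68 for miR-365-3p.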

How the data were processed

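Small RNA libraries of the lens capsule from 3 control and 3 Na2SeO3 rats were compared, with columns assigned by sample title. According to the study's methods, reads were trimmed (Cutadapt, Fqtrim), quality was inspected in FastQC, and miRDeep assigned the reads using the Ensembl reference of the rat (HISAT2 is also named). The authors deposited unscaled read counts per miRNA name and library. The versions and the build are not given in the sources used here.

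Of the 910 names, filterByExpr (minimum count 10) kept 341. The groups were compared in edgeR by the quasi-likelihood test on TMM-scaled counts, with group as the only factor and Benjamini-Hochberg adjustment over all 341. No pair of libraries was alike within sampling noise. A miRNA was called where the adjusted p-value was under 0.05 and the log2 fold change lay beyond 1 in either direction. CPM values are after TMM scaling unless the total is named, log2 CPM used a prior count of 2, and a standard error is the log2 fold change divided by the root of its F value. The fit was tested on simulated data before use. Intervals are exact and cover counting error only, because PCR copies cannot be recognised in these reads. The tools were R 4.3.3, edgeR 4.0.16, DESeq2 1.42.0, and scipy 1.17.1.

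The miRNAs and all lists were chosen with earlier results of these data known. Named were every row of the rule, miRNAs with the same seed, the 5 with the highest correlation to each tested member, the neighbours of each in the orders of level and change, and the called miRNAs of the lists, beside a few list members chosen after their values were seen. The alternatives were other scalings (among them the raw reads that the study gives for each library), filters, thresholds and tests, a block for the replicate number, and each library left out in turn.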

Additional observations from a re-analysis of the deposited data

Results flagged for a closer look

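The table also holds sko-miR-365-5p, a miR-365 name of another species that lies outside the rat names. It was counted 4 times in Na2SeO3 library 1 and in no other library, so that it stood above the 0 counts of the control libraries. No test was run on a count of this size.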

How the results depend on the processing

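The calls of the members describe miRNAs chosen with this contrast known, and no stability is read from them. The log2 fold change of miR-193b-3p ranged from -2.29 to -1.80 when single libraries were left out and from -3.22 to -1.87 under the other alternatives. Where every library had to hold at least 10 counts it could not be tested, so the members called lower were 0. They were 2 with upper-quartile scaling, with the raw reads as the scale, and with the adjusted p-value alone, and 1 to 2 with each library left out, with 2 where Na2SeO3 library 2 or 3 was left out. The log2 fold change of miR-365-3p lost the adjusted p-value threshold with library size only (-0.71), without a filter (-1.01), and with glmTreat, whose null is a log2 change of at most 1 (-0.92), and it ranged from -1.10 to -0.68 with each library left out. The ratio of the miRNAs to each other differed by -1.51 to -0.58 with each library left out. No alternative was run for the ratio of arms, because the 5p arms had 0 to 3 counts. The cause of these shifts was not tested.

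The number of DEmiRNAs was 56, with 39 higher and 17 lower. It was 118 with the adjusted p-value alone, 9 with glmTreat, 182 with the raw reads as the scale (6 higher and 176 lower), and 45 to 62 with each library left out. The split was 32 and 22 with upper-quartile scaling and 53 and 10 with library size only. A fit that blocks on the replicate number gave 49, and the log2 fold changes of the members were -2.06 for miR-193b-3p and -0.99 for miR-365-3p. The labels give no source for a pairing by number, and libraries with the same number had deviations from their group means that correlated at -0.17, -0.18, and -0.26. The depth of the Na2SeO3 libraries, with 9 to 14 reads of miR-193b-3p in each, limits how precisely its low level is known.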

Other observations

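In the order of mean CPM in the control group, miR-193b-3p was number 208 and miR-365-3p number 198 of the 341 miRNAs tested, in the lower part of the range. miR-193b-3p stood between miR-493-3p at 50.2 CPM and miR-136-5p at 49.4 CPM, and miR-365-3p between miR-337-5p at 58.7 CPM and miR-3559-5p at 57.4 CPM, with SDs of 4.19 CPM for miR-193b-3p and 10.6 CPM for miR-365-3p (n = 3 each) that exceed these gaps. In the Na2SeO3 group miR-193b-3p was number 314, beside miR-15b-3p and miR-490-3p, and miR-365-3p was number 246, beside miR-345-5p and miR-10a-5p. In the order of log2 fold change the next value after that of miR-193b-3p was -1.83, of a name without a species that the authors' software had predicted, and miR-365-3p stood between miR-205 at -0.93 and miR-148a-5p at -0.92.

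The strand opposite Mir193 carries a further annotated hairpin, which RefSeq names Mir193a and which yields rno-miR-3549. That miRNA was counted in no library. The miR-193a names used here belong to Mir193.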
